A study of Rattus norvegicus with 6 samples.

Results

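A set of 10 genes known as direct targets of the transcription factor p53 was followed in RNA-seq counts from H9c2 cells. They are Btg2, Cdkn1a, Mdm2, Ccng1, Bax, Bbc3, Pmaip1, Sesn1, Zmat3 and Phlda3. They were chosen by name, with earlier results of these data known, from a table of 26126 gene entries. Of the 10 genes, 9 have a row in that table, and all 9 passed the low-count filter that left 14488 entries for testing. Bbc3, which encodes the BH3-only protein PUMA, has no row and is not analysed here. H9c2 is a line from embryonic rat heart muscle, grown here in high-glucose medium with 10% serum. All 6 libraries came from cells put through simulated ischemia-reperfusion (sIR), in which an ischemia buffer of pH 6.2 with 2-deoxyglucose and lactate was combined with a low-oxygen chamber. The chamber was flushed for 30 min with 95% nitrogen and 5% carbon dioxide and then held closed for 1.5 to 3.5 h. Of the libraries, 3 carry a control adenovirus and 3 an adenovirus labelled adPERK, described as PERK overexpression. Because every library had sIR, no value below compares sIR with untreated cells. The sources used here give neither a dose nor a promoter for the adenoviruses.

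p53 is a DNA-binding protein that is held at a low level by the ubiquitin ligase MDM2 and is stabilised by DNA damage and other stress. It then switches on genes that stop the cell cycle, repair DNA, limit oxidative damage or lead to apoptosis through mitochondria. Several of its targets also answer to other signals. Btg2, also called Tis21 and Pc3, was first known as an immediate early gene, and Pmaip1 and Cdkn1a can be induced through other stress factors as well.

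Total counts ran from 77923398 to 119087414 per library. Control replicate 3 stood apart in having 19287 entries above 0 against 15377 to 16685 in the other 5 libraries, and values without it are given where it matters. Eif2ak3, the gene for PERK, spanned 23.96 to 26.9 CPM (counts per 1000000 of the scaled library total) in control and 25.95 to 26.5 CPM in PERK-labelled libraries, a log2 fold change of 0.03 (SE 0.06, edgeR adjusted p = 0.887), so it does not check the labels. Of 10 cardiac muscle markers 6 stayed under 1 CPM in every library, among them Nppa and Nppb at 0 and Myh6 at 0 in 5 libraries, while Tnnt2 was at 160.5 to 183 CPM. The 7 skeletal myoblast markers summed to 677 to 720.1 CPM in control and 603 to 634 CPM in PERK-labelled libraries, with Myog the one member that passed the test (log2 fold change -0.28, edgeR adjusted p = 0.0137) and Myf5 at 0. The summed fibroblast markers (5 of 6 with a row) were at 25182 to 26538 CPM in control and 26614 to 27689 CPM in PERK-labelled libraries, nearly all of it from Col1a1 and Col3a1. Summed over each list, endothelial markers reached at most 20.4 CPM in any library, leukocyte markers 12.3 CPM and epithelial markers 54.3 CPM, with 0 of 8 tested members called by edgeR, DESeq2 or limma voom and 1, Tek, at an unadjusted p under 0.05. Of the cardiac markers 0 passed by any of the 3 tools, with 0 at an unadjusted p under 0.05, and of the fibroblast markers 0 by edgeR or voom and 1 (Lum, lower) by DESeq2. Whether the shift in Myog has a part in the results below was not tested.

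Btg2 rose in the PERK-labelled libraries, and it was the only one of the 9 measured p53 targets to pass the test. It went from 42.0 ± 2.29 to 66.4 ± 0.119 CPM (SD, n = 3), which is 1.58-fold. In bulk RNA a change per cell and a change in the share of cells expressing a gene cannot be told apart. Cdkn1a, a canonical p53 target, stood lower in all 3 PERK-labelled libraries, while Ccng1 and Pmaip1 stood higher in all 3, each by a small amount that did not pass. The other 5 overlapped between the groups. At an edgeR quasi-likelihood adjusted p (Benjamini-Hochberg) under 0.05, 1 of 9 members was called, beside 0.421% of all tested entries (0.311% higher and 0.110% lower). The members, Btg2 among them, were chosen with earlier results known, so the counts given here are a description and not independent support. The groups did not overlap for 4 of 9 members, 3 higher and 1 lower, beside 18.2% of all tested entries (9.66% higher and 8.55% lower). The log2 fold changes of the 9 were above 0 for 4 and below 0 for 5, with a median of -0.03 beside -0.0045 over all tested entries. Without PERK replicate 1 that median was 0.034. At an unadjusted p under 0.05 there were 4 of 9 members, beside 11.2% of all tested entries. DESeq2 called 4 of 9, beside 4.04% of the entries to which it gave an adjusted p, and limma voom called 1 of 9, beside 0.759%.

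**Figure D1:**
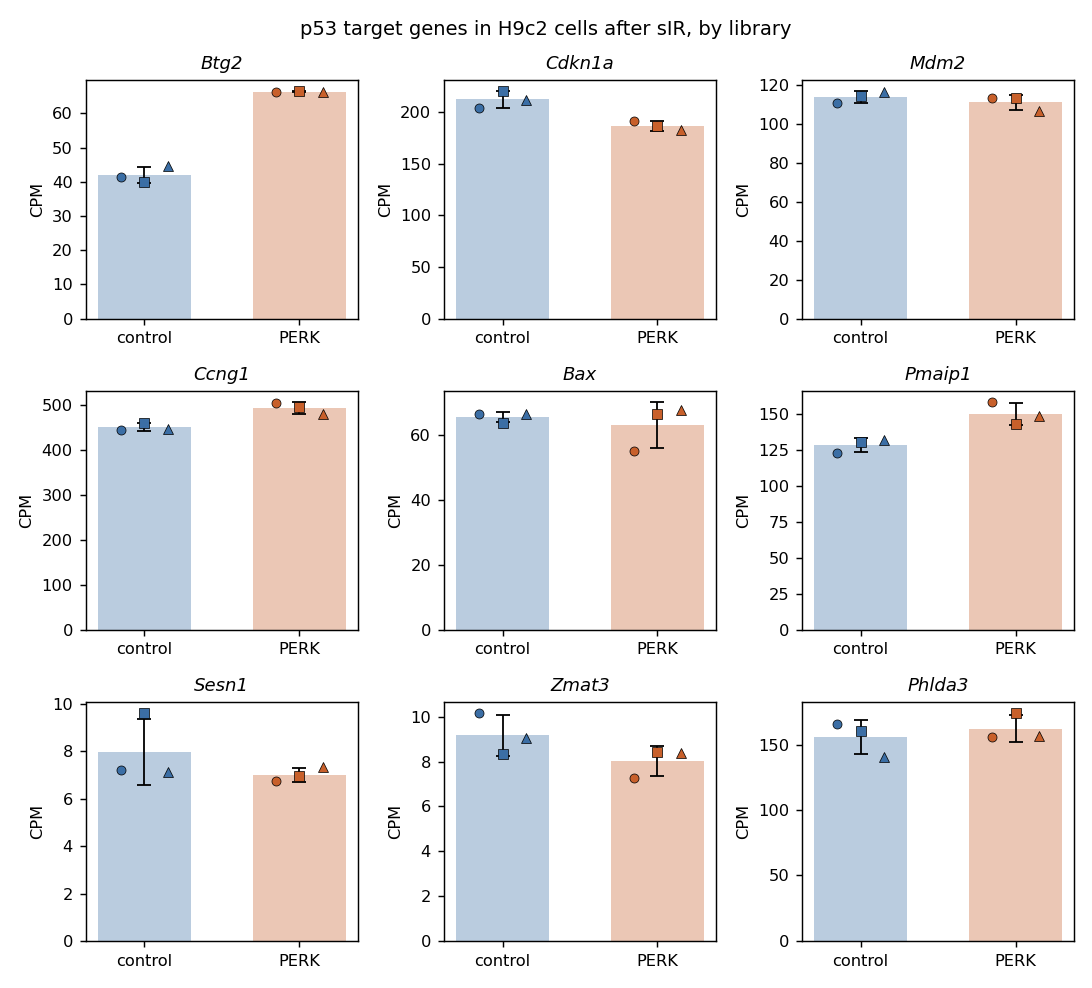
Level of each of the 9 measured p53 targets in CPM (vertical axes from 0) in control (blue) and PERK-labelled (orange) libraries. Bars are means, error bars SD over 3 libraries, and circles, squares and triangles are replicates 1, 2 and 3. Btg2 shows the wide gap, from 40.0 to 44.5 CPM in control and near 66 CPM in all 3 PERK-labelled libraries.

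Btg2, Cdkn1a and Ccng1 act mainly on proliferation. Btg2 is an anti-proliferative protein that recruits the CCR4-NOT deadenylase to messenger RNAs. The control libraries (replicates 1 to 3) held 4584, 3305 and 3463 of its counts, and the PERK-labelled ones 6550, 7956 and 5931. Scaled, the control values became 41.4, 40.0 and 44.5 CPM and the PERK-labelled values 66.3, 66.5 and 66.3 CPM, again for replicates 1 to 3. Every PERK-labelled library thus lay above every control library, and the 3 PERK-labelled values were almost the same. That is closer than random sampling of 5931 to 7956 counts would usually give, so their SD likely understates the spread. This is a log2 fold change of 0.66 (SE 0.05, 95% interval 0.55 to 0.77, edgeR adjusted p = 0.00322). It stayed past the test in all 15 alternative settings, between 0.63 and 0.71, and was 0.71 without control replicate 3.

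Cdkn1a encodes p21, which inhibits cyclin-dependent kinases. Control replicates 1 to 3 read 204, 220.0 and 212 CPM. The PERK-labelled replicates, in the same order, read 192, 186 and 182 CPM. All 3 PERK-labelled libraries were below all 3 control libraries, the opposite side from Btg2. Its log2 fold change was -0.18 (SE 0.04, 95% interval -0.28 to -0.09), and the edgeR adjusted p of 0.134 did not pass. DESeq2 gave adjusted p = 7.3e-04 and the robust edgeR fit 0.0459, within a range of 7.3e-04 to 0.329 over the 15 settings, so the call depends on the tool. In the authors' deposited table Cdkn1a has a log2 fold change of -0.18 with adjusted p = 0.0173.

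Ccng1 encodes cyclin G1, which works with the phosphatase PP2A on MDM2. Replicates 1 to 3 gave 445, 460.1 and 447 CPM under the control virus. Under the virus labelled adPERK they gave 505, 495 and 480.1 CPM. The PERK-labelled libraries were all above the control ones, by a margin that was small beside the level. On the log2 scale the fold change was 0.13 (SE 0.03, 95% interval 0.06 to 0.20, edgeR adjusted p = 0.17). DESeq2 alone called it (adjusted p = 0.0054, range 0.0054 to 0.435 over the 15 settings).

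The window from 250 bases before to 50 bases after the start of transcription is shown for the 4 genes whose groups did not overlap, because these are the members that differed most clearly between the groups. The sequences are RefSeq's for rat build GRCr8, 5′ to 3′ on the strand of the gene, and 7 of the 10 members had one. Btg2 lies at chr13:48087641-48087940, minus strand, Cdkn1a at chr20:7150682-7150981, plus strand, Ccng1 at chr10:25684827-25685126, minus strand and Pmaip1 at chr18:62255720-62256019, plus strand. Capitals mark matches on either strand to the p53 decamer (a single unit of the p53 response element) and to the CREB and ATF element TGACGTCA or its core TGACG, which lies inside the longer one.
Btg2: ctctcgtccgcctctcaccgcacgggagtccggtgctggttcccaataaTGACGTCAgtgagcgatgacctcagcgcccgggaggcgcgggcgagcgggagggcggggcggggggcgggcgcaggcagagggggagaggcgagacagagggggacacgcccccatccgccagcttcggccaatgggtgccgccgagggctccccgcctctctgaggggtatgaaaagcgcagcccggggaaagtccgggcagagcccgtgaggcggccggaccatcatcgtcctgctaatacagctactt
Cdkn1a: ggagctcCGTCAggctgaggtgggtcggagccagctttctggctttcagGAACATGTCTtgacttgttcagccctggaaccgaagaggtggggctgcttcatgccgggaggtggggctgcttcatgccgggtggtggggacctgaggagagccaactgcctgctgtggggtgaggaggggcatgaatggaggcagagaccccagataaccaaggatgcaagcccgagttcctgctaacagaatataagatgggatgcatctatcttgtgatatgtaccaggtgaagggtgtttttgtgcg
Ccng1: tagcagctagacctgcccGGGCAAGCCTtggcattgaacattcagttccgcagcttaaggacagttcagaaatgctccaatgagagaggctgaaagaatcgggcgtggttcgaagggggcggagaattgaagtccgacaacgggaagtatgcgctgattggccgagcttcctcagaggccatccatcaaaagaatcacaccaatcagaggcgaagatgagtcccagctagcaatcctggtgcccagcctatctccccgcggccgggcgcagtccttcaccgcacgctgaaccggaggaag
Pmaip1: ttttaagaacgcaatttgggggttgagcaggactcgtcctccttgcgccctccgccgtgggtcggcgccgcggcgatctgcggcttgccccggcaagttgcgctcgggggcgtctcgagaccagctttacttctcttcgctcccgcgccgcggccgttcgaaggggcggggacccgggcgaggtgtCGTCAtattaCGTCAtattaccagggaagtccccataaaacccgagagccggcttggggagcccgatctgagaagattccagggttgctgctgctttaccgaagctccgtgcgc

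In the Btg2 window TGACGTCA lies at positions -201 to -194 from the start, and no p53 decamer was matched. Of all 33469 windows in the table, 1.83% hold TGACGTCA and 21.2% hold TGACG. The Cdkn1a window has a p53 decamer at -201 to -192 and 1 TGACG core. The Ccng1 window has a p53 decamer at -232 to -223, and 7.98% of all windows hold one. The Pmaip1 window has TGACG cores at -64 to -60 and -54 to -50. Among the other 3 members with a window, Sesn1 has a p53 decamer and a TGACG core, Mdm2 has a TGACG core and Phlda3 has neither. The AP-1 site TGANTCA and the CArG box bound by serum response factor were matched in 0 of the 7 windows, against 7.33% and 1.64% of all windows. A match describes the letters only, and a missing match covers only full matches to these patterns in this window. Positions count from the annotated start of each window, and whether these cells use that start was not tested. Sites that depart from a pattern were not searched for, so a p53 site with mismatches could lie unmarked in the Btg2 window. Binding was not measured.

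**Figure D2:**
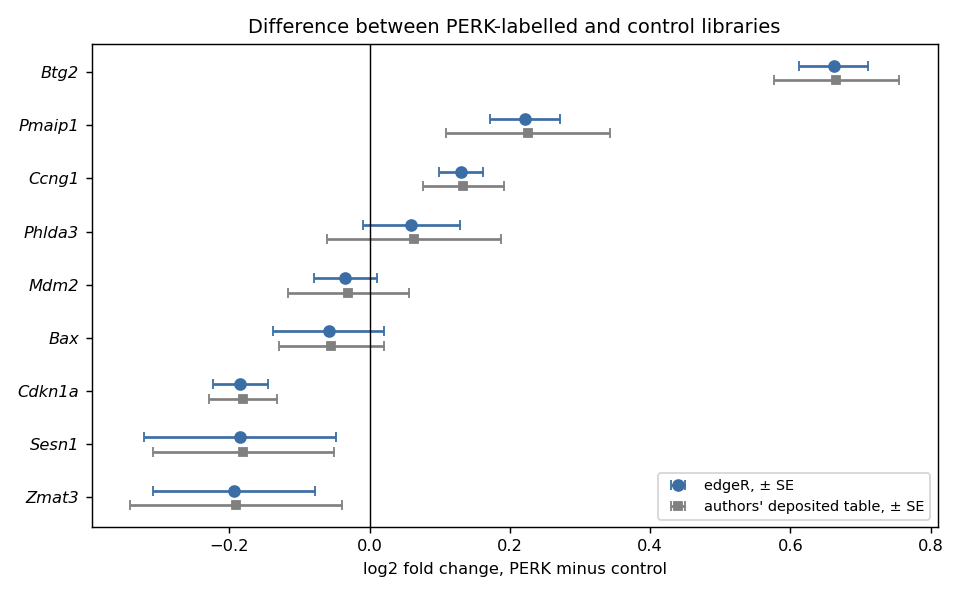
Log2 fold change of each member, PERK-labelled minus control (horizontal axis), from edgeR (blue circles) and from the authors' deposited table (grey squares), both with ± SE. Btg2 is at 0.66 and the other 8 members lie between -0.19 and 0.22 with edgeR.

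Mdm2 encodes the ligase that holds p53 down and is itself a p53 target, which closes the feedback loop. Control libraries carried 111, 114 and 117 CPM of it (replicates 1 to 3). PERK-labelled libraries carried 113, 114 and 107 CPM. The groups overlapped, with a log2 fold change of -0.03 (SE 0.04, 95% interval -0.14 to 0.07, edgeR adjusted p = 0.828). With 1 library left out it ran from -0.06 (without control replicate 1) to -0.0036 (without PERK replicate 3).

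Members tied to cell death gave mixed values. Pmaip1 encodes NOXA, a BH3-only protein that binds MCL1. Its control replicates 1 to 3 stood at 123, 130.5 and 132 CPM. Its PERK-labelled replicates stood at 158, 143 and 149 CPM. All PERK-labelled libraries were above all control libraries, and PERK replicate 1 was the highest. Pmaip1 had a log2 fold change of 0.22 (SE 0.05, 95% interval 0.11 to 0.34, edgeR adjusted p = 0.155). DESeq2 alone called it (adjusted p = 0.00103, range 0.00103 to 0.326 over the 15 settings), while in the authors' deposited table its value is 0.23 (adjusted p = 0.485).

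Bax encodes the protein that opens pores in the outer mitochondrial membrane. Under the control virus, replicates 1 to 3 had 66.5, 63.9 and 66.7 CPM. With adPERK the 3 values were 54.97, 66.6 and 67.7 CPM. The groups overlapped, and PERK replicate 1 alone was low. The log2 fold change of -0.06 (SE 0.08, edgeR adjusted p = 0.837) became 0.03 without that library, and was -0.10 without PERK replicate 2 and -0.11 without PERK replicate 3. A Bax pseudogene, Bax-ps1, is annotated in rat, so reads could be shared and the Bax count is uncertain to that extent.

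Phlda3 encodes a pleckstrin-homology protein that restrains AKT at the membrane. Levels of 166, 160.2 and 141 CPM were found in control libraries 1 to 3. PERK-labelled libraries 1 to 3 had 156, 174 and 157 CPM. The groups overlapped, with control replicate 3 lowest. The log2 fold change was 0.06 (SE 0.07, 95% interval -0.10 to 0.22, edgeR adjusted p = 0.806). Leaving out control replicate 3 turned it to -0.0073, leaving out PERK replicate 2 gave 0.0062 and leaving out control replicate 1 gave 0.11. A ribosomal protein pseudogene, Rpl11-ps12, overlaps the gene in GRCr8.

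Sesn1 and Zmat3 had the fewest counts of the 9, from 556 to 1124 per library, and the widest intervals. Sesn1 encodes sestrin 1, which limits oxidative damage and mTORC1 activity. Its level was 7.20, 9.61 and 7.14 CPM over the control replicates (1 to 3), then 6.76, 6.96 and 7.34 CPM over those labelled PERK. Control replicate 2 alone was high. The log2 fold change of -0.18 (SE 0.14, 95% interval -0.50 to 0.13, edgeR adjusted p = 0.67) became -0.03 without that library. Zmat3 encodes an RNA-binding zinc finger protein that acts in splicing and mRNA stability. Replicates 1 to 3 of the control read 10.2, 8.32 and 9.06 CPM, and those of PERK 7.28, 8.44 and 8.37 CPM. The groups overlapped. Its log2 fold change was -0.19 (SE 0.12, 95% interval -0.46 to 0.07, edgeR adjusted p = 0.576). Leaving out the first replicate of control gave -0.12, and that of PERK -0.13.

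**Figure D3:**
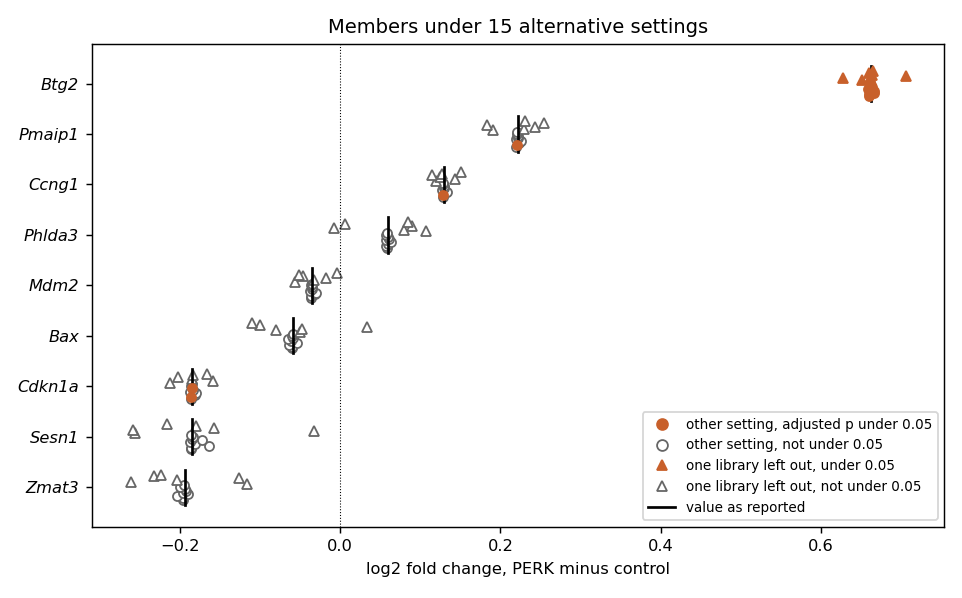
Log2 fold change of each member, PERK-labelled minus control, as reported (black bar) and under 15 alternative settings (circles, other settings; triangles, one library left out; filled orange, adjusted p under 0.05; open, not under it). Btg2 is filled in all 15, Cdkn1a in 2, Ccng1 and Pmaip1 in 1 each and the other 5 in 0.

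Members can also be set against each other inside a library, where any scaling cancels. For Btg2 over Cdkn1a counts the log2 ratio came to -2.30, -2.46 and -2.25 under the control virus (replicates 1 to 3). Under adPERK it came to -1.53, -1.48 and -1.46. The ratio was thus 1.80-fold higher in PERK-labelled libraries, with no overlap between the groups. Against Mdm2, Btg2 was 1.62-fold higher, by a difference in log2 ratio of 0.70. The log2 ratio of Cdkn1a to Mdm2 differed by -0.15, that of Ccng1 to Cdkn1a by 0.31 and that of Pmaip1 to Bax by 0.29. For each of these 5 ratios the two-sided exact permutation p was 0.1, the smallest that 3 against 3 libraries can give, but the 5 were chosen after the values were seen, so that p is a description only. The difference for Pmaip1 to Bax was 0.15 without PERK replicate 1. The raw ratio depends on transcript length as well as level, so only its difference between libraries is read here.

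Btg2 was then compared with every other well-expressed entry (at least 5 CPM on average, 8999 entries with an ordinary symbol). The measure was the root mean square distance between log2 CPM values over the 6 libraries, after the mean of each entry was removed. The 4 nearest were Ppp1r15a (0.05), Arc (0.07), Arl4a (0.07) and Egr1 (0.07), against a median distance of 0.34 over all compared. Ppp1r15a encodes GADD34, the phosphatase subunit that reverses phosphorylation of eIF2 alpha, and it rose with a log2 fold change of 0.67 (SE 0.04, edgeR adjusted p = 0.00204). Egr1, an early response transcription factor, was at 0.55 (edgeR adjusted p = 0.0163). Arc (0.59) and Arl4a (0.61) had edgeR adjusted p of 0.055 and 0.0581. Because the 4 were picked for closeness to Btg2, fold changes similar to its own follow from the choice. The nearest p53 target was Pmaip1 at a distance of 0.23, followed by Ccng1 at 0.27, and Cdkn1a was at 0.43. These distances describe 6 libraries only, and for the members they largely restate how far each fold change lies from that of Btg2.

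**Figure D4:**
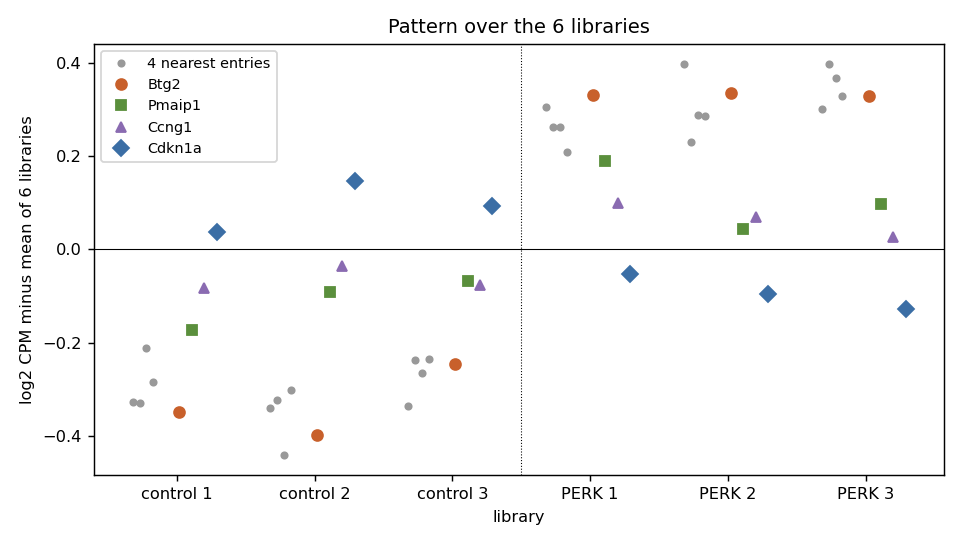
Log2 CPM minus the mean over the 6 libraries (vertical axis) in each library (horizontal axis) for Btg2, Pmaip1, Ccng1, Cdkn1a and the 4 entries nearest to Btg2 (grey). The 4 grey entries were picked for closeness to Btg2 and so lie on its side of 0 in every library. Pmaip1 and Ccng1 move the same way by less, and Cdkn1a lies on the other side of 0.

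Further lists, chosen with earlier results of these data known, covered the p53 pathway, the partners of the members and the immediate early genes. Over their 142 tested genes edgeR called 6 higher and 0 lower, which is 4.23% beside 0.421% of all tested entries, and all 6 are in the immediate early list. Outside that list edgeR called 0 of 122 tested genes. DESeq2 called 8, a larger share than its 4.04% over the entries to which it gave an adjusted p. At an unadjusted p under 0.05 there were 25, a larger share than the 11.2% of all tested entries. In the list of p53 and its regulators, edgeR called 0 of 23 tested members, with 1 at an unadjusted p under 0.05, voom called 0 and DESeq2 called 1 (lower), the kinase gene Atm, named here after its value was seen. The median log2 fold change of that list was -0.04. The largest differences in that list were those of the kinases Chek2 (-0.20) and Hipk2 (-0.19), with edgeR adjusted p of 0.58 and 0.566. Chek2 was at -0.11 without control replicate 3 or without PERK replicate 2, and Hipk2 ran from -0.11 without PERK replicate 2 to -0.31 without PERK replicate 3. Of 24 tested targets in DNA repair and metabolism 0 were called by edgeR, voom or DESeq2, and 2 higher and 3 lower had an unadjusted p under 0.05. Their median was -0.05, with Ddit4, an mTORC1 inhibitor, at 0.44 and Ddb2, a sensor of ultraviolet damage, at -0.34 (-0.21 without control replicate 1). Ddit4 read 3.57 to 3.99 CPM in control and 4.67 to 5.32 CPM in PERK-labelled libraries, without overlap (edgeR adjusted p = 0.209), while Ddb2 overlapped. DESeq2 gave Ddit4 and Ddb2 no adjusted p and so could not call them.

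Of 15 tested targets linked to cell death edgeR and voom called 0. DESeq2 called 1 of them, beside 4.04% of the entries to which it gave an adjusted p. At an unadjusted p under 0.05 there were 1 higher and 3 lower, beside 11.2% of all tested entries. The median log2 fold change of the 15 was -0.11, and 10 of 15 lay below 0, beside 51.3% of all tested entries. Bcl2l11, which encodes the BH3-only protein BIM, had the largest difference. Control libraries averaged 10.97 ± 2.33 CPM (SD, n = 3) and PERK-labelled ones 7.30 ± 0.784 CPM, without overlap (log2 fold change -0.59, SE 0.17, edgeR adjusted p = 0.225). DESeq2 alone called it (adjusted p = 0.0178, range 0.0178 to 0.455 over the 15 settings). Tp53i3 was at 0.38 from levels of 0.83 to 2.07 CPM, which overlapped between the groups. It was 0.80 without control replicate 1, 0.14 without control replicate 2 and 0.21 without PERK replicate 2. Of 7 BCL2 family partners of BAX, PUMA and NOXA, 5 were tested, and Mcl1 and Bcl2a1 were not. Of these 5, 0 were called by edgeR, voom or DESeq2 and 1 had an unadjusted p under 0.05. Bcl2l1, which encodes BCL-XL, was at 0.19 and Bcl2 at -0.49 (-0.30 without control replicate 1). DESeq2 gave Tp53i3 and Bcl2 no adjusted p and so could not call them.

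Of 12 tested targets in growth arrest edgeR and voom each called 1, beside 0.421% and 0.759% of all tested entries. At an unadjusted p under 0.05 there were 4, all higher, beside 11.2% of all tested entries, and the list median was 0.16. DESeq2 called 3, all higher, beside 4.04% of the entries to which it gave an adjusted p. They were Klf4 and, named after their values were seen, Gadd45b (0.27, edgeR adjusted p = 0.225) and Plk2 (0.18, edgeR adjusted p = 0.205). The gene called by edgeR was Klf4, a zinc finger transcription factor, with a control mean of 12.1 ± 0.853 CPM and a PERK mean of 17.6 ± 0.693 CPM (SD, n = 3 each; log2 fold change 0.54, SE 0.08, edgeR adjusted p = 0.0434). The call was lost with any 1 library left out (adjusted p 0.0918 to 0.186). Gdf15 had the largest fitted value of the list, but its level was at most 0.27 CPM in any library. Among the BTG and TOB family and its deadenylase partners 0 of 17 were called by edgeR, voom or DESeq2 with 1 below an unadjusted p of 0.05. Their median was -0.01, with Tob1, an anti-proliferative relative of Btg2, at 0.23 and Cnot3 at 0.12. Cnot3 moved with single libraries, to 0.02 without control replicate 1, 0.23 without control replicate 2, 0.20 without PERK replicate 2 and 0.06 without PERK replicate 3.

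Cell cycle genes that p21 acts on gave 0 calls by edgeR. Of the 11 cyclins, kinases and other genes whose proteins p21 binds, edgeR and voom called 0. At an unadjusted p under 0.05 there were 1 higher and 3 lower, beside 11.2% of all tested entries. DESeq2 called 3 of the 11, beside 4.04% of the entries to which it gave an adjusted p. Ccnd1 (named after its value was seen) was higher, and Ccne1 and Cdk1 were lower. In edgeR 8 of the 11 were below 0, beside 51.3% of all tested entries, and the median was -0.06, with Ccne1 at -0.23 and Cdk1 at -0.19. Of 18 tested genes repressed through p21 and the DREAM complex edgeR called 0. At an unadjusted p under 0.05 the 18 held 2 higher and 4 lower, beside the same 11.2% of all tested entries. Of these 18, 12 were below 0, and the median was -0.05. Top2a, which encodes DNA topoisomerase II alpha, was at -0.20 with edgeR adjusted p = 0.0534, just outside the threshold. It passed in 7 of the 15 settings, among them DESeq2 and voom (range 4.7e-07 to 0.225). Aurkb was at -0.17. Cdkn1a stood lower in the same libraries without passing the test, as given above.

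Immediate early genes, which answer to growth factors and stress within minutes and among which Btg2 is also counted, made up all 6 calls. The list was chosen with earlier results of these data known, so its counts are a description and not independent support. All 20 tested members other than Btg2 lay above 0, while 51.3% of all tested entries lay below it, and their median log2 fold change was 0.35. By edgeR 6 of 20 rose (Fos, Egr1, Klf4, Dusp1, Cyr61 and Ctgf), beside 0.311% of all tested entries. DESeq2 and voom called 8 and 6, all higher, beside 4.04% and 0.759% of entries in either direction. At an unadjusted p under 0.05 there were 12, all higher, beside 11.2% of all tested entries. Fos, an AP-1 subunit, rose most, with a log2 fold change of 1.22 (SE 0.09, edgeR adjusted p = 0.00322), and Fosb, at 1.09, had edgeR adjusted p = 0.0828. DESeq2 gave Fosb no adjusted p and so could not call it. Fos was the only one of the 6 called by edgeR to stay called with each library left out in turn, as Btg2 did. The 6 calls over all 9 lists became 4 without control replicate 1, 3 without control replicate 2, 2 without PERK replicate 2 and 1 without each of the other 3 libraries.

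**Figure D5:**
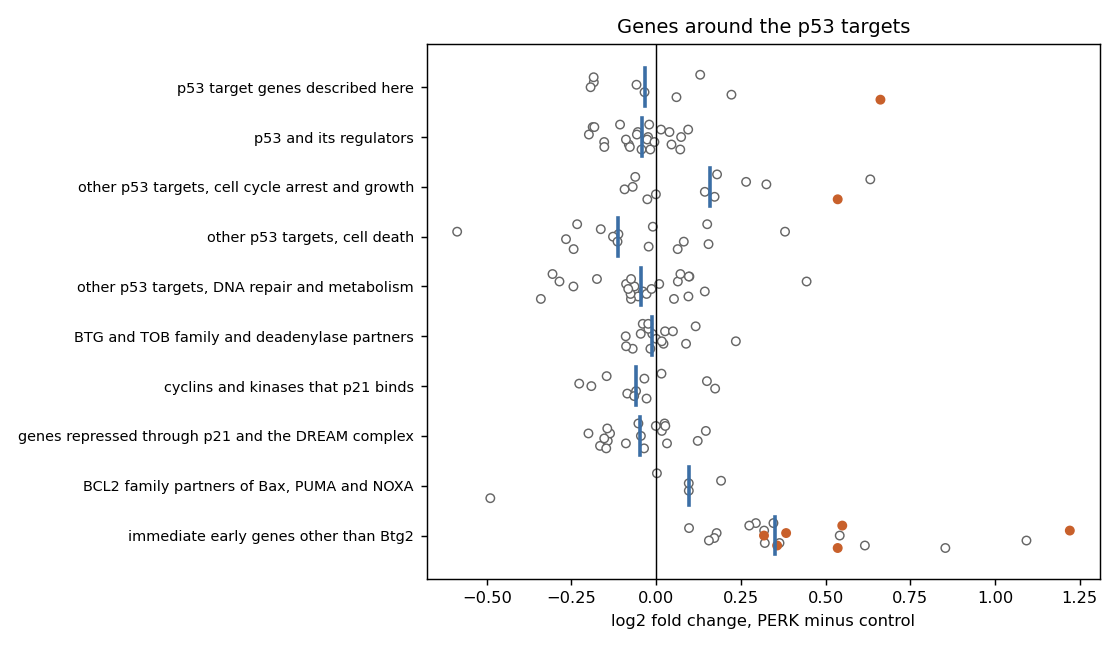
Log2 fold change, PERK-labelled minus control (horizontal axis), of every tested gene in the p53 targets described here and in 9 further lists. Each circle is a gene, filled orange where edgeR adjusted p was under 0.05, and blue bars are list medians. Among the p53 targets Btg2 stands alone at 0.66, and the immediate early genes all lie above 0.

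The authors' deposited table, which lies beside these counts in the same file, calls 2 of the 9 members at adjusted p under 0.05, beside 2.27% of the entries with an adjusted p there. It gives Btg2 a log2 fold change of 0.67 (SE 0.09, adjusted p = 4.6e-10) and Cdkn1a the value above. For the other 7 members its adjusted p lies between 0.303 (Ccng1) and 1.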

How the data were processed

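RNA-seq counts of 6 libraries (3 control, 3 PERK) were used. The authors' deposited table gives whole-number counts per gene. It also holds a deposited signal per library (counts divided by a size factor), the authors' log2 fold changes, a test score, and p-values and adjusted p-values. Bowtie 0.12.2 and the mouse build mm9 are named, per the submitters' processing notes, while entries carry rat symbols. No source used here gives the build or counting program behind the counts. Values at 6, 12, 18 or 24 counts numbered 4108 against 1756 at 9, 15, 21 or 27, so counts may exceed the fragments behind them. Another table has 6 columns that match no sample label and was not used.

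Counts were scaled by TMM, filtered with filterByExpr (minimum count 10) and tested in edgeR 4.0.16 (R 4.3.3) with glmQLFit and glmQLFTest, group as the only term, with Benjamini-Hochberg adjustment over 14488 entries. DESeq2 1.42.0, limma 3.58.1 voom, other filters, scalings and left-out libraries were alternatives. SE and 95% intervals follow from the F statistic (8.13 degrees of freedom). The labels do not say whether replicates were separate cultures; p-values then reflect only how far these samples scatter, possibly for technical reasons. Steps were tested on simulated data. Members and lists were chosen with earlier results of these data known. Genes named were the members, called genes and the 2 largest differences of each list, and the 5 entries nearest to Btg2, of which 1 is not reported here.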

Additional observations from a re-analysis of the deposited data

How the results depend on the processing

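Btg2 was called in all 15 alternatives. The count of called members, 1, became 4 with DESeq2 and 2 with the robust fit, and stayed 1 in the other 13. The 61 calls over all entries became 392 with DESeq2, 110 with limma voom, 94 without the low-count filter, 93 with counts divided by 6, 132 with the robust fit and 9 with the replicate block, and 12 to 38 when any 1 library was dropped (lowest without PERK replicate 1). Higher calls made up 73.8% of the 61, 63.5% of those by DESeq2 (249 higher and 143 lower) and between 52.2% and 71.4% when 1 library was dropped. The 6 calls in the other lists became 16 with DESeq2 and 1 with the replicate block, and 1 to 4 with 1 library left out. The median log2 fold change of the members, -0.034, ranged from -0.051 to 0.034 with 1 library left out. Over all tested entries, same-numbered libraries of the 2 groups did not deviate together (correlations -0.06, 0.01 and 0.03). A batch shared by number that acts on some genes could go unseen in such a correlation. The replicate block left Btg2 called (log2 fold change 0.66, edgeR adjusted p = 0.0286). Fits with 1 library left out rest on 5 libraries, and the causes of the other shifts were not tested.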
